A study of Mus musculus with 4 samples.

Results

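Serpins are a superfamily of proteins, most of which inhibit proteases, and the mouse family was described here in sorted liver macrophages. Members were the genes of the count table whose mouse symbol begins with Serpin, a clade letter from a to i and a number; 3 pseudogenes, with at most 12 counts in a library, were left out. This gave 44 members of 29247 gene identifiers, of which 28926 carried a symbol. Clade a held 20 members, clade b 14, clade e 3, clade f 2, and clades c, d, g, h and i 1 each. They were read as 24 members of clades a, c, d and f, most of which encode plasma proteins made by hepatocytes, 14 members of clade b, which mostly act inside cells and include the serpins of leukocytes, and 6 members of clades e, g, h and i.

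RNA was sequenced from flow-sorted liver macrophages of C57BL6J mice aged 8 wk, for which the labels give no genetic change. The APAP group held 3 libraries of Cxcr4+ macrophages; the mice had been given 300 mg/kg of APAP i.p. in saline and were killed at 72 h. APAP is acetaminophen, which injures hepatocytes at high doses. The other group held 1 library of control macrophages, for which the labels give no drug, no time and no sort on Cxcr4, so the effect of the drug and that of the sort cannot be told apart. With 1 control library, the spread behind every test came from the APAP libraries alone, and the labels do not say that those came from separate animals. The p-values therefore measure the spread between libraries, which may be technical.

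A serpin inhibits by acting as bait. A protease cuts an exposed stretch near the carboxyl end, the reactive-centre loop, the loop inserts into the body of the serpin, and the protease is trapped in a covalent complex that receptors of the LDL receptor family remove. The loop therefore sets which protease is caught. In the liver, hepatocytes secrete the serpins that hold coagulation, fibrinolysis, complement and leukocyte elastase in check, and leukocytes keep clade b serpins in the cytosol against their own granule proteases.

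Among the plasma serpins of mice is a row of α1-antitrypsin copies, Serpina1a to Serpina1e, on chromosome 12. The coding sequence of the loop is shown because it is the part of these near-identical genes that meets the protease. Each line gives 87 bases on the minus strand of build GRCm38, in the last exon of the GENCODE vM21 gene model, and capitals mark bases that differ from Serpina1a.
Serpina1a (chr12:103853750-103853836): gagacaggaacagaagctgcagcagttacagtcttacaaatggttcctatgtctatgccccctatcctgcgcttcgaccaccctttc
Serpina1b (chr12:103728317-103728403): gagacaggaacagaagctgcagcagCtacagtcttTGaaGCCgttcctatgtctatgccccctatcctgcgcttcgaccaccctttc
Serpina1c (chr12:103895087-103895173): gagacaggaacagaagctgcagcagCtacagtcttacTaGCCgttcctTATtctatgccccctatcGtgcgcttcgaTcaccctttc
Serpina1d (chr12:103763755-103763841): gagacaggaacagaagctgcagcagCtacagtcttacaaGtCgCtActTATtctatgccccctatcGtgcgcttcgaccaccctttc
Serpina1e (chr12:103947093-103947179): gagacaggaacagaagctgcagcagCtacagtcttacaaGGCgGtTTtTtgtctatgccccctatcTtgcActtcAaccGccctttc
Serpina1b differed from Serpina1a at 6 of the 87 bases, Serpina1d at 9, Serpina1c at 10 and Serpina1e at 12. Across the 10 pairs, the fewest differences were 5, between Serpina1c and Serpina1d. Over all exons, 69.3% of the 100-base stretches of Serpina1c exons also occurred in another gene, against 42.8% for Serpina1a, 29.3% for Serpina1d, 14.8% for Serpina1b and 14.4% for Serpina1e. How the authors' counting treated reads that fit several copies is not given in the sources used here, so the split among the 5 is uncertain and their sum is given as well.

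Markers of the labelled cell type were present: all 10 macrophage genes had counts in every library, and they summed to 27200, 32050 and 32240 CPM (library-scaled counts, with TMM factors, as in all that follows) after APAP and to 46740 in the control library. Of the 10, 6 fell and 1 rose, beside 18.9% and 25.4% of all genes tested. Clec4f was at 2785, 4083 and 4670 against 13080 CPM and Timd4 at 242, 308 and 324 against 945 CPM. The 1 that rose, Mertk, named after its values were seen, was at 665.7, 752.5 and 892.6 against 522.8 CPM. Lyz2 was at 7972, 8812 and 8567 against 6747 CPM and was not called. The part of these marker changes in the serpin values was not tested. Hepatocyte RNA was present too and was lower after APAP: 14 hepatocyte markers summed to 389, 298 and 488 CPM in APAP libraries 1 to 3 and to 1040 in the control, and 11 of the 14 fell. No hepatocyte marker was at 0 in any library. Transferrin, which made up most of the signal of the full list of 15, was left out of that sum after its values were seen. B cell markers were higher after APAP (8 of 8 rose, summing to 312, 488 and 360 CPM against 59.9), as were plasmacytoid dendritic cell markers (5 of 6 rose, 164, 183 and 192 CPM against 93.4), and their part in the serpin values was not tested. Total counts ranged from 48282283 to 56702837 per library. Of 18715 genes tested across the whole table, 4758 (25.4%) were called higher and 3537 (18.9%) lower at an adjusted p of 0.05 (edgeR quasi-likelihood test), and the median log2 fold change was 0.08.

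Most serpin transcripts were lower after APAP. Together they made up 0.0567%, 0.0554% and 0.0641% of counts in APAP libraries 1 to 3 and 0.1045% in the control, and summed to 545, 536, 620 and 1162 CPM. Of 44 members, 38 had 10 or more counts in a library and 37 entered the test. Of those 37, 22 fell and 3 rose, beside the 18.9% and 25.4% of all genes tested, and 12 were not called. The median log2 fold change of the 37 was -1.41. In 27 of the 37 all 3 APAP libraries lay below the control and in 6 all lay above it, and over all genes tested these numbers were 7330 and 8549. The 6 members under 10 counts, with at most 8 in any library, were not tested, nor was Serpinb1c, with 10, 4 and 0 counts against 0.

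**Figure D1:**
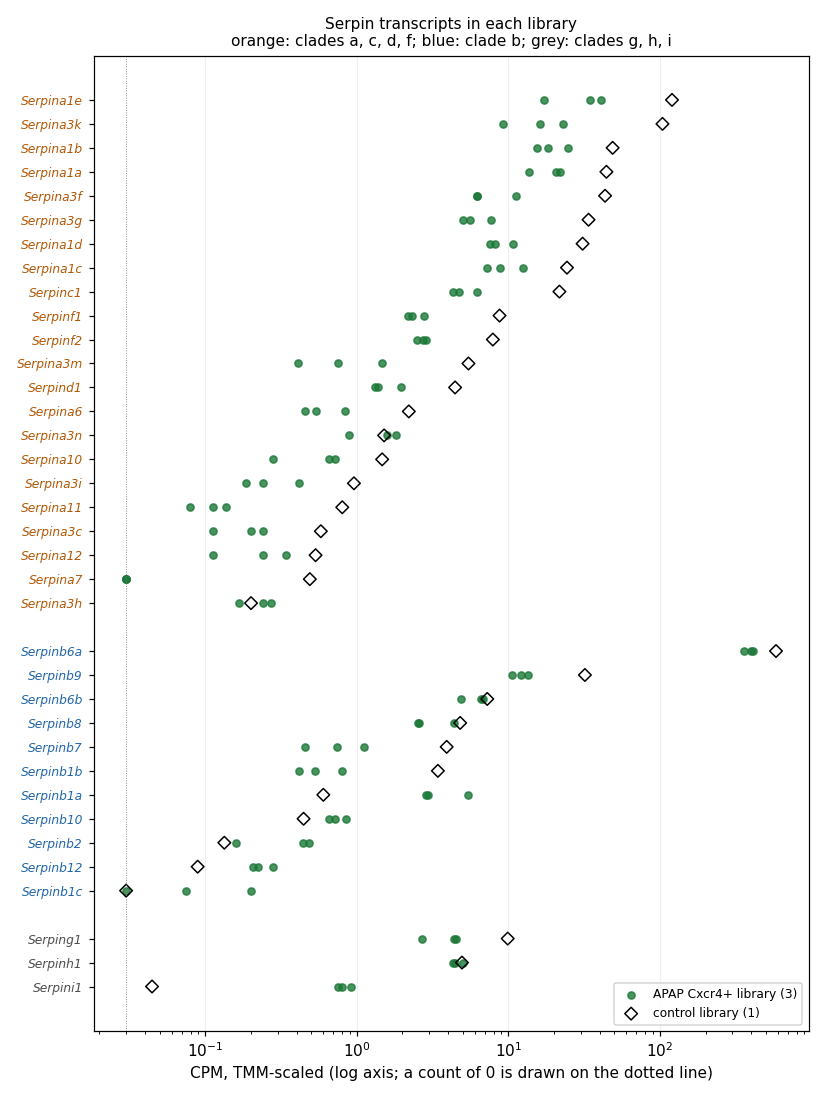
Rows are serpins of clades a to d and f to i with 10 or more counts in a library, and the log x axis gives the level in TMM-scaled CPM. Filled circles are the 3 APAP Cxcr4+ libraries, the open diamond is the control library, and a count of 0 is drawn on the dotted line. Most orange rows have the diamond to the right of all circles, and Serpinb6a stands alone at the right, at 360 to 411 CPM after APAP and 584 in the control.

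Per kilobase of exon, which makes levels of different genes comparable, Serpinb6a was the most abundant serpin in every library. It stood at 66.5 to 75.9 CPM per kilobase after APAP and at 108 in the control. Serpina1e followed, at 10.6 to 25.3 and 74.4, and then in the control Serpina3k at 50.6, Serpina1a at 24.2, Serpina1d at 22.2 and Serpina1b at 20.2. In the APAP libraries Serpina1a ran from 7.52 to 12.02, Serpina1b from 6.42 to 10.3 and Serpina3k from 4.51 to 11.2. Serpina1c ran from 5.29 to 9.24 and Serpina1d from 5.44 to 7.66, so the ranges overlapped. The genes were measured in the same libraries, so overlapping ranges do not show equal levels, and their order was not tested. Serpinb6a alone took 50.25% of all serpin counts in the control and 66.0%, 73.9% and 66.2% in the APAP libraries.

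Most plasma serpins fell. The 24 members of clades a, c, d and f summed to 141, 95.1 and 166 CPM in APAP libraries 1 to 3 and to 507 in the control, so that the APAP mean of 134 ± 35.9 (SD, n = 3) was 26.4% of the control. All 3 APAP libraries were below the control and library 2 was the lowest. Of 22 members tested, 17 fell and 0 rose, beside the 18.9% and 25.4% of all genes, with a median log2 fold change of -1.79. At an unadjusted p under 0.05, 19 were lower and 0 higher. In bulk RNA, fewer cells of a type and less RNA per cell cannot be told apart.

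The α1-antitrypsin copies all fell. Serpina1e was at 34.5, 17.1 and 41.0 CPM after APAP and at 120.2 in the control (log2 fold change -1.96, SE 0.40, adjusted p = 0.0121). Serpina1d was at 8.22, 7.58 and 10.7 against 30.9 CPM, a change of -1.81 (SE 0.20, adjusted p = 0.00207). For both genes the groups did not overlap, and the control was more than 2 times the highest APAP library. Serpina1b was at 18.3, 15.5 and 24.8 against 48.8 CPM and fell by 1.32 (SE 0.24). Serpina1a was at 20.6, 13.8 and 22.03 against 44.4 CPM and fell by 1.24 (SE 0.25), and Serpina1c was at 8.76, 7.20 and 12.6 against 24.4 CPM and fell by 1.36 (SE 0.29). In each copy library 2 was the lowest and library 3 the highest. Summed into 1 feature, the 5 copies were at 90.3, 61.2 and 111 CPM against 269 (log2 fold change -1.62, SE 0.28, adjusted p = 0.00713).

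Serpins that govern coagulation and fibrinolysis were also lower. Antithrombin, Serpinc1, which inhibits thrombin and factor Xa, was at 4.72, 4.34 and 6.25 CPM after APAP and at 21.7 in the control (log2 fold change -2.09, SE 0.22, adjusted p = 0.00180). The groups stood far apart and the APAP libraries were close to each other. A neighbouring gene on the opposite strand, Zbtb37, shares 32.2% of the 100-base stretches of Serpinc1 exons and rose, from 4.03 CPM to 21.8, 23.4 and 22.7. The strand setting of the counting is not given in the sources used here, and without strand the reads of both genes cannot be told apart. Heparin cofactor II, Serpind1, was at 1.31, 1.38 and 1.96 against 4.45 CPM (log2 fold change -1.52, SE 0.30, adjusted p = 0.0108). Serpinf2, α2-antiplasmin, which inhibits plasmin, was at 2.85, 2.48 and 2.71 against 7.90 CPM (-1.56, SE 0.19, adjusted p = 0.00264). The control lay above every APAP library in both. Serpina10, which inhibits factor Xa with protein Z as cofactor, was at 0.657, 0.279 and 0.717 against 1.47 CPM and was not called (-1.41, adjusted p = 0.0795).

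Serpina6, the corticosteroid carrier, was at 0.458, 0.540 and 0.836 CPM after APAP against 2.20 (log2 fold change -1.84, SE 0.40, adjusted p = 0.0155), and without APAP library 2 the call was lost at a similar size (-1.75, adjusted p = 0.0542). Serpina7, the thyroxine carrier and the only clade a member on the X chromosome, had 0 counts in each APAP library and 22 in the control, at least 8.2-fold lower with a floor of 3 counts per library. Pigment epithelium-derived factor, Serpinf1, which does not inhibit proteases, was at 2.17, 2.33 and 2.78 against 8.75 CPM (-1.85, SE 0.21, adjusted p = 0.00225). All 3 genes had the control above every APAP library. Serpina11 was at 0.080, 0.112 and 0.137 against 0.801 CPM (-2.84, SE 0.58, adjusted p = 0.0120), and 32.8% of its 100-base stretches are shared with an overlapping gene model, Gm28577. Serpina12, vaspin, an inhibitor of a tissue kallikrein, was at 0.239, 0.112 and 0.341 against 0.534 CPM and was not called (adjusted p = 0.208).

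The α1-antichymotrypsin-like genes of the Serpina3 cluster, expanded in rodents to many copies, split into members that fell and members that did not pass. Serpina3k, a plasma serpin also known as contrapsin, was at 16.2, 9.27 and 23.0 CPM after APAP and at 104 in the control (log2 fold change -2.68, SE 0.40, adjusted p = 0.00447). Its neighbour Serpina3m was at 0.756, 0.410 and 1.47 against 5.45 CPM (-2.62, SE 0.56, adjusted p = 0.0143). Both were lowest in library 2 and highest in library 3, as the α1-antitrypsin copies were. The models of Serpina3k and Serpina3m overlap on one strand and share 4.85% and 6.09% of their 100-base stretches. Serpina3n, an acute-phase serpin that inhibits granzyme B and neutrophil elastase, was at 1.57, 0.894 and 1.83 against 1.51 CPM, so that the control lay inside the APAP range (-0.08, SE 0.45, adjusted p = 0.898). Serpina3h was at 0.239, 0.168 and 0.273 against 0.200 CPM (adjusted p = 0.855), and Serpina3c at 0.199, 0.112 and 0.239 against 0.579 CPM (-1.64, adjusted p = 0.0785).

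Serpina3f and Serpina3g, unlike most of their clade, are known from leukocytes, and the product of Serpina3g works in the cytosol against lysosomal cathepsins such as cathepsin B. Serpina3f was at 11.3, 6.18 and 6.25 CPM after APAP and at 43.5 in the control (log2 fold change -2.46, SE 0.33, adjusted p = 0.00325). Serpina3g was at 7.62, 5.05 and 5.55 against 33.8 CPM (-2.48, SE 0.22, adjusted p = 0.00139). In both genes library 1 was the highest of the APAP libraries, and the control stood well above all 3. The less abundant Serpina3i was at 0.418, 0.186 and 0.239 against 0.957 CPM (-1.77, SE 0.56, adjusted p = 0.0465), a call lost without library 2 (adjusted p = 0.103) or library 3 (0.0657) and with the DESeq2 Wald test (0.0963). Serpina3f and Serpina3g summed to 18.9, 11.2 and 11.8 CPM against 77.3 (-2.47, SE 0.27, adjusted p = 0.00204). Leaving both out, 15 of the 20 other tested members of clades a, c, d and f fell, beside 18.9% of all genes tested. Their median log2 fold change was -1.70.

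The upstream sequences of Serpina1e, Serpina3f and Serpina3g are shown because these genes fell together and their windows hold different short motifs. The sequences are from RefSeq, build GRCm38.p6, each 130 bases ending just before the annotated start. Capitals mark GTTAAT, a part of the palindrome bound by the hepatocyte factor HNF1, in Serpina1e, and TTCNNNGAA, the element bound by STAT dimers and known as GAS, in the other 2.
Serpina1e (chr12:103956898-103957027, minus strand): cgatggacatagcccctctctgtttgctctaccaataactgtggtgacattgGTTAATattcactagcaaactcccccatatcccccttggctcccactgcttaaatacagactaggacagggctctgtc
Serpina3f (chr12:104214414-104214543, plus strand): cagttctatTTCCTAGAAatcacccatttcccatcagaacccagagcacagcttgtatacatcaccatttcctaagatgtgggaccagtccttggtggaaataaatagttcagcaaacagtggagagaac
Serpina3g (chr12:104236017-104236146, plus strand): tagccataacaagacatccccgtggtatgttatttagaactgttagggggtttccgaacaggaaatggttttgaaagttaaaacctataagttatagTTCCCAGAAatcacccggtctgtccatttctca
The matches begin 78, 121 and 33 bases before the start. Promoter windows of 300 bases, from 250 before to 50 after the start, were matched for 35 of the 44 members and searched on both strands. GTTAAT occurred in 7 of 18 members of clades a, c, d and f with a window, among them all 5 α1-antitrypsin copies, and in 1 of 13 of clade b (Serpinb8). In all 32851 promoter windows of the table its share was 7.1%. TTCNNNGAA occurred in 4 of the 18 (Serpina11, Serpina3f, Serpina3g and Serpina3i) and in 2 of the 13 (Serpinb2 and Serpinb6a), against 8.3% of all windows. GAGGAAGT, a form of the site of the myeloid factor PU.1, occurred in 0 of the 18 and in 1 of the 13 (Serpinb7), against 3.2%, and TATAAA in 4 and 5, against 13.6%. None of these motifs occurred in the 4 windows of clades e, g, h and i. The copies of Serpina1 share ancestry, so their matches are not independent, and a match is a description of letters only.

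**Figure D2:**
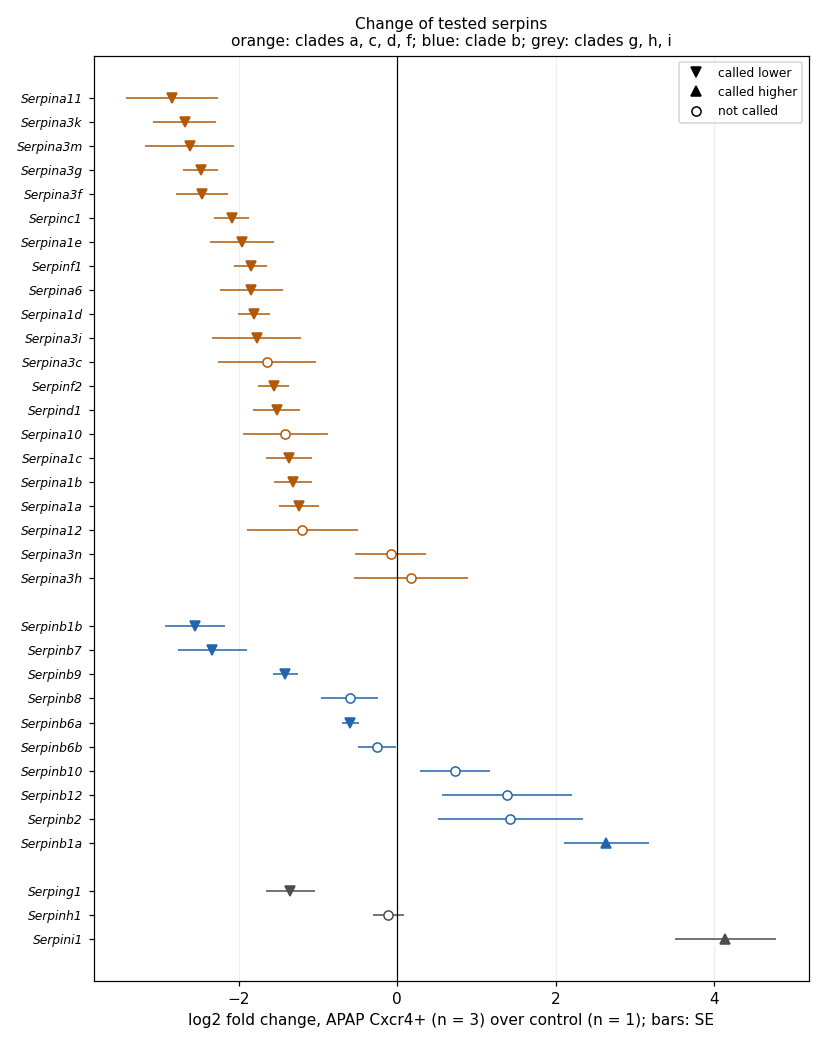
Log2 fold change of tested serpins of clades a to d and f to i, APAP Cxcr4+ (n = 3) over control (n = 1), with bars of 1 SE. Filled triangles pass an adjusted p of 0.05 and point in the direction of the change, and open circles do not pass. Serpina7, with 0 counts in every APAP library, is not drawn. The orange rows fill the left side down to -2.84, and the blue rows run from -2.55 for Serpinb1b to 2.64 for Serpinb1a.

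Because hepatocyte RNA was lower after APAP, each plasma serpin was also set against the 14 hepatocyte markers of the same library. Per 1000 CPM of those markers, Serpina1a was at 52.9, 46.2 and 45.1 after APAP and at 42.7 in the control. Serpina1b was at 47.0, 52.0 and 50.9 against 46.9, and Serpina1c at 22.5, 24.2 and 25.8 against 23.4. On this scale the control lay just under or inside the range of the APAP libraries for these 3 copies. Serpina1e, at 88.7, 57.4 and 83.9 against 115.6, and Serpina1d, at 21.2, 25.4 and 21.9 against 29.7, stayed below the control.

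Some other plasma serpins were lower than in the control relative to the marker sum. Albumin gave 218, 177 and 269 CPM of that sum after APAP and 492 in the control. Its log2 fold change was -1.15. The median log2 fold change of the 14 markers was -1.86, beside -1.79 for the tested members of clades a, c, d and f. Serpina3k was at 41.6, 31.1 and 47.2 per 1000 marker CPM against 100 in the control, and antithrombin at 12.1, 14.5 and 12.8 against 20.9. In both, no APAP library reached the control. The 2 genes known from leukocytes also stayed below it, Serpina3f at 29.0, 20.7 and 12.8 against 41.8 and Serpina3g at 19.6, 16.9 and 11.4 against 32.5. Serpina3n stood above, at 4.05, 2.995 and 3.74 against 1.46. All APAP libraries lay below the control for 12 of the 22 tested members of clades a, c, d and f. These 12 include Serpina3f and Serpina3g. The APAP libraries lay above the control for 4 and on both sides of it for 6. Against albumin alone these counts were 17, 2 and 3. The share over all genes was not computed on either scale, so these counts are a description only. On the CPM scale, all APAP libraries lay below the control for 7330 of 18715 genes tested and above it for 8549. The part of hepatocyte RNA in the lower serpin levels was not tested beyond these ratios.

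The APAP libraries also differed among themselves, and the order of their levels was read by set of members. Of the 21 tested members of clades a, c, d and f with counts in the APAP libraries, 17 were highest in library 3 and 17 were lowest in library 2. Of the 14 hepatocyte markers, 12 were highest in library 3 and 12 were lowest in library 2. In clade b, 4 of 10 were highest in library 3, 3 in library 1 and 3 in library 2, and 1 was lowest in library 2. In the remaining clades, Serping1, Serpinh1 and Serpine2 were also lowest in library 2. Serpini1 and Serpine2 were highest in library 3, and Serping1 and Serpinh1 in library 1. The share over all genes was not computed and genes of the same libraries are not independent, so these counts are a description only. The 4 members of the first set that were highest in library 1 were Serpina3f, Serpina3g, Serpina3i and Serpinf2.

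**Figure D3:**
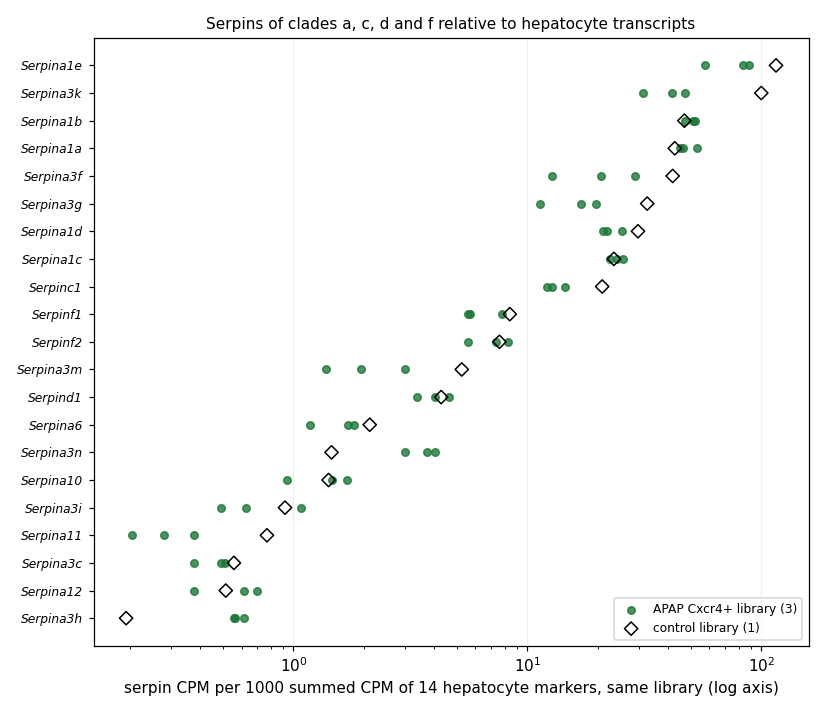
Level of each tested serpin of clades a, c, d and f divided by the summed level of 14 hepatocyte markers of the same library, as CPM per 1000 marker CPM on a log axis. Circles are the 3 APAP libraries and the diamond is the control. The diamonds of Serpina1a, Serpina1b and Serpina1c meet their circles, and those of Serpina3k, Serpina3f, Serpina3g and Serpinc1 lie to the right of theirs. Serpina7, at 0 after APAP, is not drawn.

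Clade b members went both ways. Its 14 members summed to 388, 426 and 437 CPM in APAP libraries 1 to 3 and to 637 in the control, an APAP mean of 417 ± 25.8 (SD, n = 3), or 65.5% of the control. Of 10 members tested, 4 fell and 1 rose, beside the 18.9% and 25.4% of all genes tested, and 5 were not called, with a median log2 fold change of -0.42; the difference from the other clades was not tested. Without Serpinb6a the sums were 28.1, 29.9 and 26.0 CPM against 52.7. The 8 clade b members on chromosome 13 and the 6 on chromosome 1 form separate clusters, and 3 of 5 tested on chromosome 13 fell and 1 rose, against 1 and 0 of 5 on chromosome 1.

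Serpinb6a, a cytosolic serpin whose human counterpart inhibits the neutrophil protease cathepsin G, was at 360, 396 and 411 CPM after APAP and at 584 in the control. The APAP libraries lay close together and below the control. The log2 fold change was -0.59 (SE 0.11, adjusted p = 0.00909), and without APAP library 2 the call was lost at a similar size (-0.60, adjusted p = 0.0519). Its gene model overlaps Ripk1, Nqo2 and 1110046J04Rik on the opposite strand, which share 19.9% of its 100-base stretches. Ripk1 was at 134, 131 and 134 against 116 CPM and Nqo2 at 31.6, 26.3 and 28.2 against 31.0 CPM, and neither was called. Its relative Serpinb6b was at 6.83, 6.55 and 4.88 against 7.25 CPM and was not called (-0.25, SE 0.24, adjusted p = 0.414).

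Serpinb9, the cytosolic inhibitor of granzyme B that protects cytotoxic cells and antigen-presenting cells from their own or imported granzyme, fell. It was at 13.6, 12.2 and 10.5 CPM after APAP and at 32.0 in the control (log2 fold change -1.41, SE 0.16, adjusted p = 0.00220). The control was more than 2 times each APAP library. Granzyme B itself, Gzmb, rose from 4.09 to 29.0, 14.6 and 13.1 CPM (2.20, SE 0.54, adjusted p = 0.0216). Transcripts of the inhibitor and of its target thus stood in opposite order in the 2 groups. Of 10 NK and T cell markers, 6 rose and 0 fell, beside the 25.4% and 18.9% of all genes tested. These 10 markers summed to 102, 105 and 81.5 CPM after APAP against 37.8. Their part in the granzyme values was not tested.

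The Serpinb1 genes, relatives of the human inhibitor of neutrophil elastase, proteinase 3 and cathepsin G, went opposite ways. Serpinb1a was at 2.85, 5.46 and 2.97 CPM after APAP and at 0.601 in the control (log2 fold change 2.64, SE 0.54, adjusted p = 0.0124). Serpinb1b was at 0.418, 0.800 and 0.529 against 3.43 CPM, a change of -2.55 (SE 0.38, adjusted p = 0.00466). In each gene the groups did not overlap, and library 2 was the highest APAP library in both. No 100-base stretch of either was shared with another gene, but 2.81% of the 50-base stretches of Serpinb1a and 3.09% of those of Serpinb1b were. Of 9 neutrophil markers tested, 5 rose and 0 fell, beside the 25.4% and 18.9% of all genes tested. The 10 markers of the full list summed to 165, 108 and 61.6 CPM after APAP against 45.8. Their part in the Serpinb1a value was not tested.

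Serpinb7, known from skin and from mesangial cells of the kidney, was at 0.458, 0.745 and 1.11 CPM after APAP against 3.92 (log2 fold change -2.33, SE 0.44, adjusted p = 0.00935). All 3 APAP libraries were below the control. Serpinb8, which inhibits furin, was at 2.53, 2.57 and 4.39 against 4.81 CPM and was not called (-0.60, SE 0.36, adjusted p = 0.218). Without library 3, the highest, it passed (-0.90, adjusted p = 0.0261). Serpinb2, the plasminogen activator inhibitor of stimulated macrophages, was at 0.159, 0.484 and 0.444 against 0.134 CPM and was not called (1.43, SE 0.91, adjusted p = 0.239). Serpinb10, known from blood cell precursors, was at 0.716, 0.652 and 0.853 against 0.445 CPM (0.73, adjusted p = 0.216), and Serpinb12 at 0.279, 0.223 and 0.205 against 0.089 CPM (1.38, adjusted p = 0.215). In these 3 genes every APAP library lay above the control, at levels under 1 CPM. The models of Serpinb2 and Serpinb10 overlap on the same strand and share 7.52% and 5.1% of their 100-base stretches.

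In the remaining clades, Serpini1 rose and Serping1 fell. Serpini1, neuroserpin, which inhibits tissue plasminogen activator and is known from neurons, had 38, 43 and 54 counts after APAP and 2 in the control. The ratio was 18.7-fold, with a 95% exact interval of 5.07 to 156 that covers counting error only, and the log2 fold change was 4.14 (SE 0.64, adjusted p = 0.00517).

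Serping1, the C1 inhibitor, which controls the first step of the classical complement pathway and the contact system, was at 4.54, 2.68 and 4.40 CPM after APAP and at 9.90 in the control. The groups did not overlap (log2 fold change -1.35, SE 0.31, adjusted p = 0.0167). Serpinh1, the collagen chaperone of the endoplasmic reticulum, was at 5.02, 4.34 and 4.42 against 4.94 CPM (-0.11, SE 0.20, adjusted p = 0.684). Serpine2, protease nexin 1, was at 0.279, 0.261 and 0.290 against 0.289 CPM (-0.06, adjusted p = 0.938). The control lay inside the APAP range for both.

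The proteases that serpins inhibit were read from lists, beside the 25.4% of all genes tested that were higher and the 18.9% that were lower; differences between the lists were not tested. Of 5 granzyme genes, 3 rose and 0 fell: Gzmb as above, Gzma from 1.65 to 14.2, 7.20 and 4.47 CPM (log2 fold change 2.38, SE 0.72), and Gzmc, at 0.597, 0.633 and 0.495 CPM with 0 counts in the control. Of the neutrophil proteases, Prtn3 was at 1.25, 0.819 and 0.751 against 0.534 CPM and was not called, and Elane was at or below 0.040 CPM in every library. The mast cell proteases Mcpt4 and Tpsb2 had 0 counts in every library. Of 7 cysteine cathepsins, targets of Serpina3g among others, 3 fell and 0 rose. Ctsb, the most abundant, was at 12160, 10820 and 11100 against 12950 CPM (-0.19, adjusted p = 0.335), and Ctsh fell by 0.57, Ctsl by 0.49 and Ctss by 0.42.

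Plasma protease genes went both ways. Prothrombin, F2, the target of antithrombin, was at 4.54, 4.26 and 5.44 CPM after APAP and at 20.0 in the control (log2 fold change -2.07, SE 0.18). Plasminogen, Plg, the source of the target of Serpinf2, was at 4.86, 4.78 and 6.35 against 17.7 CPM (-1.73, SE 0.20). Of 12 tested coagulation, contact and C1 protease genes, 5 fell and 1 rose, beside the 18.9% and 25.4% of all genes tested. F12 fell by 1.89 and C1ra by 0.83. The 1 that rose, factor VII, F7, was named after its values were seen, at 19.1, 7.60 and 4.49 against 0.801 CPM (3.69, SE 1.01, adjusted p = 0.0310), highest in library 1. F10 was at 23.4, 8.69 and 7.82 against 6.79 CPM (0.97, adjusted p = 0.2802), and F9, also named after its values were seen, at 1.91, 1.43 and 1.54 against 0.979 CPM (0.73, adjusted p = 0.127), all APAP libraries above the control in both.

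Of 4 tested genes of the plasminogen system, Plg included, 1 rose and 1 fell, beside the 25.4% and 18.9% of all genes tested. Urokinase, Plau, was at 26.9, 16.6 and 15.1 against 18.6 CPM (0.07, adjusted p = 0.881), with the control inside the APAP range. Its receptor Plaur rose from 11.8 to 22.5, 17.7 and 16.2 CPM (0.67, SE 0.21, adjusted p = 0.0483). Vitronectin, Vtn, an adhesive plasma and matrix protein that binds serpins, fell from 38.3 to 6.35, 5.18 and 8.46 CPM (-2.52, SE 0.24). Furin, the target of Serpinb8, rose from 153 to 274, 274 and 242 CPM (0.78, SE 0.12), while Casp1 fell by 0.79 and Casp4 by 0.92 on the log2 scale.

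Receptors that take up serpin-protease complexes were higher. Lrp1, the main clearance receptor of such complexes, was at 6760, 6897 and 6111 CPM after APAP and at 2773 in the control (log2 fold change 1.25, SE 0.15, adjusted p = 0.00257). The relatives Sorl1, at 260, 262 and 218 against 15 CPM, and Lrp8, at 6.29, 3.41 and 4.81 against 0.178 CPM, rose by 4.04 (SE 0.17) and 4.74 (SE 0.56). In all 3 the groups did not overlap. Of 6 tested genes in this list, which holds vitronectin too, 3 rose and 1 fell, beside the 25.4% and 18.9% of all genes tested.

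**Figure D4:**
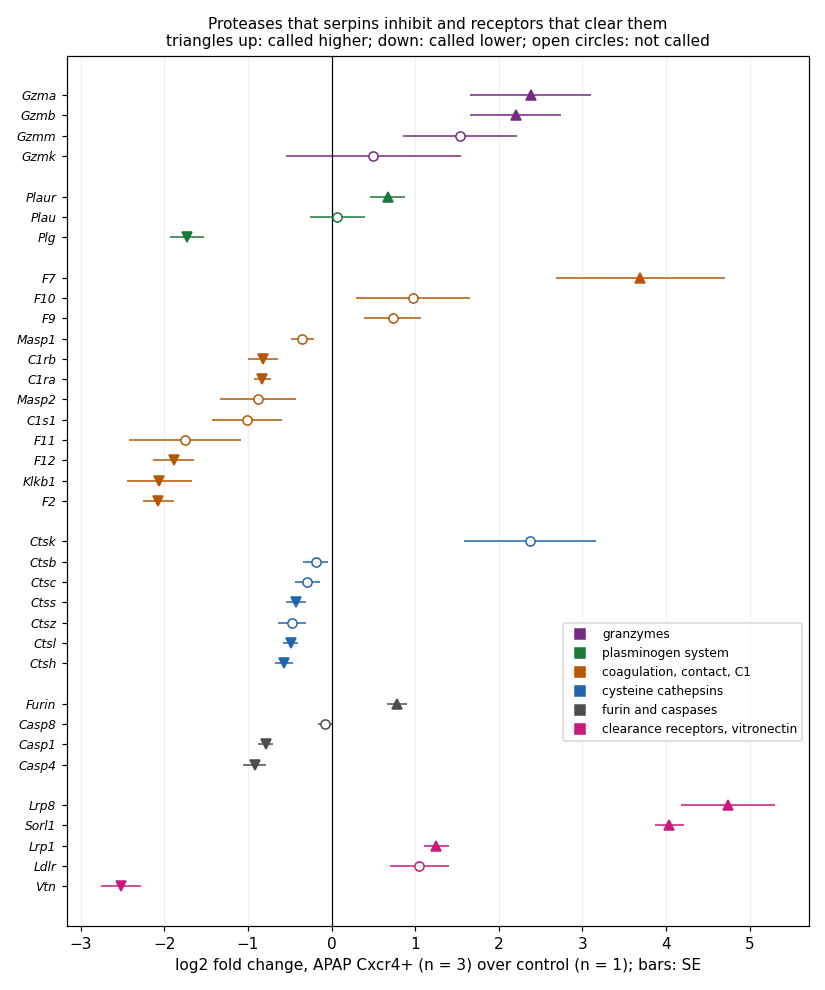
Log2 fold change, with bars of 1 SE, of proteases that serpins inhibit and of the receptors that clear the complexes. Filled triangles pass an adjusted p of 0.05 and open circles do not. Genes at 0 counts in the control are not drawn. Granzymes and clearance receptors lie mostly right of 0, and F2, F12, Plg and vitronectin lie left of -1.7.

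Other protease inhibitors also went both ways. Of 19 tested genes for inhibitors that are not serpins, 7 fell and 3 rose, beside the 18.9% and 25.4% of all genes tested, with a median log2 fold change of -0.71. Wfdc17, a macrophage-expressed whey acidic protein family member, was at 271, 306 and 327 against 1709 CPM (-2.50, SE 0.12), and cystatin C, Cst3, which inhibits cysteine cathepsins, at 563, 651 and 688 against 1492 CPM (-1.23, SE 0.13). Tissue factor pathway inhibitor, Tfpi, fell by 0.71 (SE 0.10). The 3 that rose, named after their values were seen, were Slpi, which inhibits neutrophil elastase (3.18, SE 0.61), the leukocystatin Cst7 (2.0, SE 0.44) and Spint1 (1.40, SE 0.43).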

How the data were processed

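RNA sequencing of flow-sorted liver macrophages gave 3 APAP Cxcr4+ libraries and 1 control. The deposited values are raw counts per Ensembl gene, made by the authors with HISAT2 and Subread on mm39 per the submitters' processing notes; for versions, annotation, strand setting and shared reads, the sources used here say nothing. APAP columns have no replicate numbers, so libraries 1 to 3 follow table order.

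Genes passing edgeR's filterByExpr (minimum count 10, minimum total 15) were fitted in edgeR 4.0.16 (R 4.3.3) with TMM factors of 0.90 to 1.04, and the 2 groups were compared with the quasi-likelihood test, adjusted by the Benjamini-Hochberg method over all 18715 genes tested and called at 0.05. The fit had 2 residual degrees of freedom and a common biological coefficient of variation of 0.162. The standard error is the log2 fold change divided by the square root of F. DESeq2 1.42.0 and limma 3.58.1 served as alternatives. Exon lengths, overlaps and shared stretches came from GENCODE vM21 on GRCm38, another build than the counts, and promoters from RefSeq. The fitting code was also run on simulated counts, with fewer changed genes than were called here, and no result rests on that run.

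The members and all gene lists were chosen with earlier results of these data known. Named genes were serpins with 10 or more counts in a library and, from each other list, the called genes with the 3 smallest p-values, the 2 most abundant genes and those at 0 throughout; names outside this rule are marked in the text. The values of 1 member, which the counts of members include, are not reported here.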

Additional observations from a re-analysis of the deposited data

How the results depend on the processing

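No paired analysis was possible because the columns carry no replicate numbers and there is 1 control. Over 387 combinations of a tested serpin and an alternative setting, 357 kept direction and call, 24 lost the call, 2 gained it and 4 changed sign. Of the 25 called serpins, 21 passed under every setting that gave a p-value except glmTreat, which tests for a log2 change beyond 1.

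With glmTreat, 1 serpin was higher and 7 were lower: 6 in clades a, c, d and f and 1 in clade b (0 higher), with 1 higher and 0 lower in clades e, g, h and i, and 1379 genes called in all against 8295. The lower ones were Serpina1d, Serpina3f, Serpina3g, Serpina3k, Serpinc1, Serpinf1 and Serpinb1b, and the higher one was Serpini1. Requiring 5 CPM in any 1 library, which tests fewer members, left 14 lower, of them 11 in clades a, c, d and f and 2 in clade b, and 1 higher in clades e, g, h and i.

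Leaving out each APAP library gave 19 to 23 lower and 2 to 3 higher serpins, 15 to 17 lower in clades a, c, d and f, 3 to 5 lower in clade b, 1 to 2 higher in clades e, g, h and i, and 5001 to 9380 genes called in all. The lowest of these, 5001, came without library 2, where the calls of Serpina3i, Serpina6 and Serpinb6a were among those lost. Without library 3, Serpina10 (-1.64, adjusted p = 0.0428) and Serpinb8 passed.

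Fold changes rose with exon length across 18656 genes (Spearman's rho 0.223, genes not being independent replicates). With an offset for that trend, added after the data were seen, 3 serpins that were not called changed sign: Serpina3n to 0.24, Serpinb6b to 0.03 and Serpinh1 to 0.15. Leaving out single libraries moved Serpina3n between -0.28 and 0.17, the latter without library 2. The cause was not tested. The summed level of clades a, c, d and f, a log2 ratio of -1.92, ranged from -2.10 to -1.72 over scalings and left-out libraries, and that of clade b, -0.61, from -0.65 to -0.56. The 7 members that were not tested had at most 10 counts in a library.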
